A study of Rattus norvegicus with 39 samples.

Results

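Calorie restriction (CR) was compared with ad libitum feeding (AL) in the cerebral cortex of 12-month-old male rats of the inbred BN strain (BN/SsNOlaHSD). The comparison was made on all libraries that the labels assign to these 2 groups, 3 AL and 3 CR libraries out of 39 in the series. Each library was made from the pooled cortical RNA of 2 rats, so the pool was the unit of replication and the spread between single rats could not be seen. All rats ate freely until 2 months of age and were then housed singly and assigned to a diet at random. CR rats received 55% of the control intake once a day, in the morning, and AL rats kept unlimited access to food. The AL libraries are called AL pools 4, 5 and 6 below and the CR libraries CR pools 13, 14 and 15, after the numbers in the labels. A further diet of the same age, AL with lipoic acid in the food at 1.5 g/kg (AL+LA, pools 37, 38 and 39), and the AL and CR groups at 6 and 28 months are given beside the 12-month values where they help to place them.

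Calorie restriction is a lowered food intake without malnutrition, and it extends lifespan in many laboratory animals. In the ageing rodent brain it is known for its effects on glia and on inflammation. Among the genes of interest here are those of major histocompatibility complex (MHC) class II, whose products carry peptides from taken-up proteins to the surface of antigen-presenting cells. The alpha and beta chains of class II pair in the endoplasmic reticulum around the invariant chain, which guides them to the compartment where peptide is loaded. In the brain, class II is carried mainly by microglia and by macrophages at the vessels and meninges, at low levels in young animals.

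The libraries differed in ways that the diet labels do not name. AL pool 5 held 494091 reads on genes, against 2366549 in AL pool 6, 3813173 in AL pool 4 and 3230145 to 4078398 in the CR pools. As a result, 3144 of the genes tested had no read in AL pool 5, and the 12-month calls of the genes named below are given with and without this pool. The large ribosomal RNA gene Rn28s (ENSRNOG00000050614) took 29575, 26782 and 17166 CPM (read counts scaled to a common library total) in AL pools 4, 5 and 6 but 4302, 3141 and 3033 CPM in CR pools 13, 14 and 15, a log2 fold change (CR over AL) of -2.82 ± 0.20 (SE; edgeR adjusted p = 4.96e-09; without AL pool 5, -2.75, adjusted p = 9.09e-06). Its groups did not overlap, and in the AL+LA pools of the same age it was read at 21683 to 35498 CPM. The share of reads that were not aligned was 33.6% ± 2.92 in AL and 41.8% ± 1.17 in CR (SD, n = 3 each; two-sided exact permutation p = 0.1, the smallest that 3 against 3 pools allow). In the AL+LA pools of the same age it was 39.3% to 41.0%, near the CR pools. At 6 and 28 months it was 27.5% to 33.2% in the AL pools and 38.1% to 40.8% in the CR pools. The 6 cerebellar marker genes that could be named summed to 51.2, 460.2 and 1881 CPM in AL pools 4, 5 and 6, against 65.0 to 72.9 CPM in the CR pools and 64.0 to 69.2 CPM in the AL+LA pools. Thus AL pools 5 and 6 held cerebellar transcripts and AL pool 4 did not stand above the CR pools. Of the markers fixed for cortical glutamatergic neurons, 3 could be named, and they summed to 119.9 to 212 CPM in AL and 159 to 269.9 CPM in CR, with overlapping groups.

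**Figure D1:**
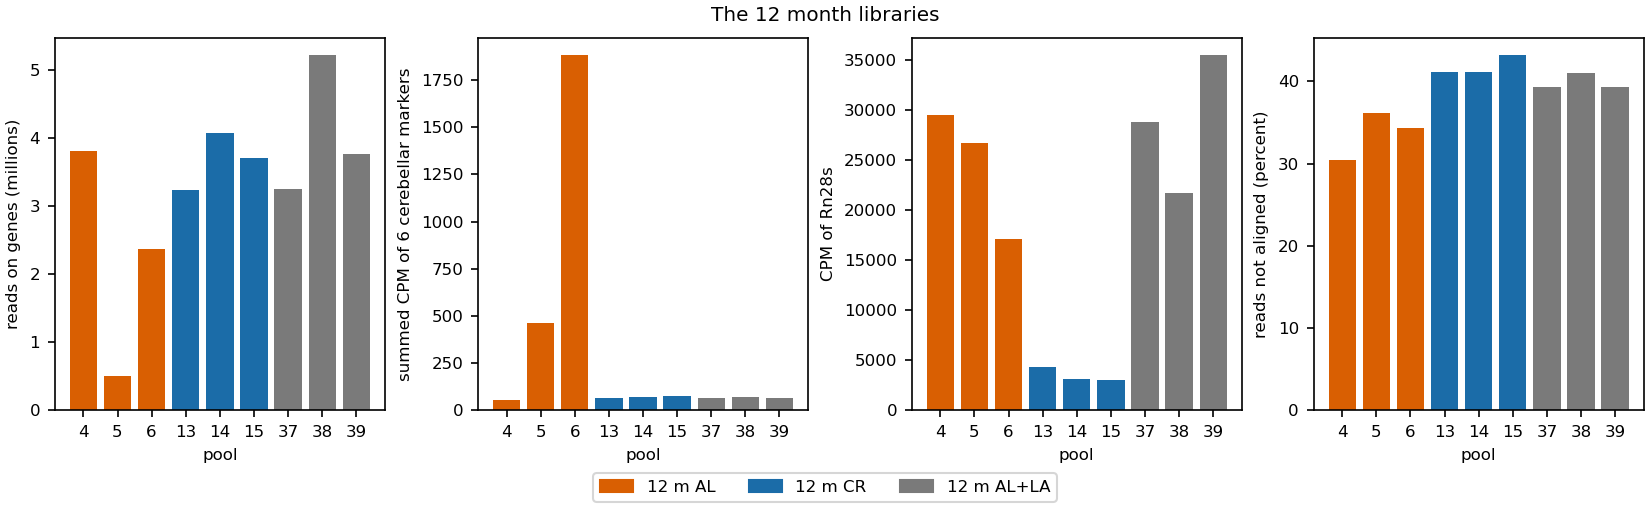
Library measures at 12 months. Each bar is 1 pool, coloured by diet (AL, CR or AL+LA), with reads on genes, summed CPM of the 6 named cerebellar markers, Rn28s in CPM and the percentage of reads not aligned on the vertical axes. AL pool 5 is the shallowest (494091 reads), AL pools 5 and 6 are high for cerebellar markers, and the CR pools are low for Rn28s.

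At 12 months 372 of 17230 genes tested, or 2.16%, were differentially expressed (DE) between AL and CR in edgeR's quasi-likelihood test at an adjusted p under 0.05. Of these, 126 (0.731% of the genes tested) were higher and 246 (1.43%) were lower in CR. Without AL pool 5 the count fell to 206 (1.20%), of which 58 were higher and 148 were lower. Of the 372 genes, 190 were also called without AL pool 5, and all 372 kept their sign. The fold changes were larger among the lower genes, with a median log2 fold change of -1.21, than among the higher genes, with a median of 0.95. A log2 fold change of 1 or more in size was reached by 171 of the lower and 51 of the higher genes. The 3 AL pools and the 3 CR pools did not overlap for 122 of the 126 higher and 212 of the 246 lower genes, whereas groups did not overlap for 19.1% of all genes tested (11.1% with CR above AL, 8.00% with CR below). Leaving out AL pools 5 and 6 together left 242 genes (1.40%, 101 higher and 141 lower), and 161 of the 372 were among them. Leaving out AL pool 6 alone gave 381 genes (2.21%), and a fit with the cerebellar marker level as a covariate gave 178 (1.03%, with 107 lower, or 0.621%).

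**Figure D2:**
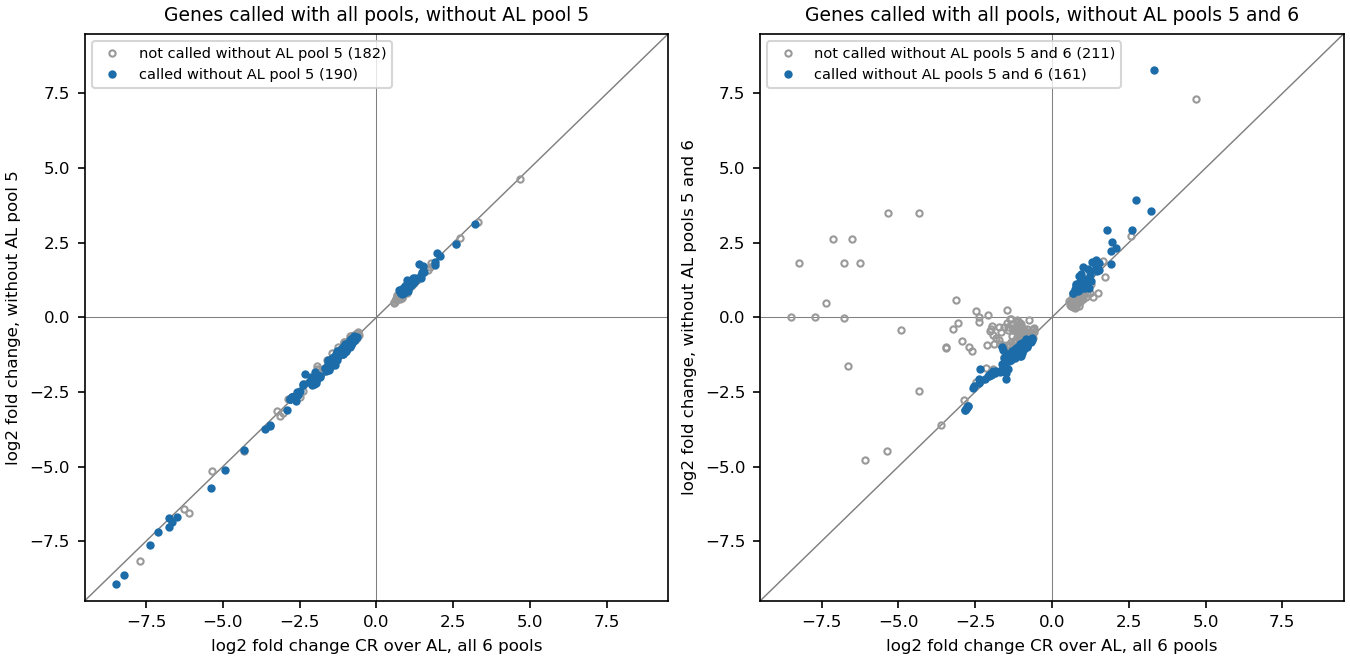
Log2 fold changes (CR over AL, 12 months) of the DE genes with all 6 pools on the horizontal axis, against the same values without AL pool 5 and without AL pools 5 and 6 on the vertical axes. Each point is 1 of the 372 genes, filled where it was also called with the pools left out (190 without AL pool 5), and the diagonal marks equal values. The fit without both pools has 1 AL pool, so its filled points are not read as calls. All 372 keep their sign without AL pool 5, and 15 change sign without both pools.

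Of the 372 genes, 179 had a gene name. Names were known for 1667 of the 26123 gene identifiers, all of them picked by the study from these same libraries, and 10.7% of these 1667 were DE at 12 months (3.96% higher, 6.78% lower). A list below is therefore described by its named members only, as a share of those, and its count is not independent evidence of its direction. In bulk tissue, fewer cells of a type and less RNA per cell cannot be told apart.

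The MHC class II genes with a name were all lower in CR than in AL, and Cd74, RT1-Ba and RT1-Db1 had the smallest adjusted p among the named protein-coding genes. Of 13 listed genes of class II presentation, 5 had a name, and 5 of 5 were lower in CR, with all pools and without AL pool 5, with a median log2 fold change of -2.38 (0.01 over all genes tested). Without AL pools 5 and 6 the median was -2.19. The invariant chain gene Cd74 (ENSRNOG00000018735) was read at 101, 146 and 109 CPM in AL pools 4, 5 and 6 and at 20.6, 16.1 and 29.8 CPM in CR pools 13, 14 and 15. Every AL pool was several times above every CR pool. The log2 fold change of Cd74 was -2.38 ± 0.22 (edgeR adjusted p = 5.69e-07), or -2.25 without AL pool 5 (adjusted p = 0.000103). In the AL+LA pools Cd74 stood at 12.2, 89.4 and 35.4 CPM, that is, 1 pool near the AL level and the others lower.

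The promoters of the 4 genes that encode class II chains are printed here because these genes were lower in CR together. Shown are the 120 bases before the start of each gene in RefSeq (rat build GRCr8, a build other than that of the counts), 5′ to 3′ on the strand of the gene. They lie at chr20:4576937-4577056 (+) for RT1-Ba, chr20:4604119-4604238 (-) for RT1-Bb, chr20:4515295-4515414 (+) for RT1-Da and chr20:4560163-4560282 (-) for RT1-Db1. Capitals mark matches to CTGATTGG, which holds the reverse complement of the CCAAT box, and to ACNGATG.
RT1-Ba: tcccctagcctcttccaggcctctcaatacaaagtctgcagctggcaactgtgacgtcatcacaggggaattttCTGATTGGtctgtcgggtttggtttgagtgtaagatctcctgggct
RT1-Bb: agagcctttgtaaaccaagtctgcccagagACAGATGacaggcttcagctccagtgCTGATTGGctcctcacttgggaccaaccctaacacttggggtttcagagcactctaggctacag
RT1-Da: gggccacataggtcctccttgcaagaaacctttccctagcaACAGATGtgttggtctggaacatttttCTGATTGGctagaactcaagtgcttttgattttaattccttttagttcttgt
RT1-Db1: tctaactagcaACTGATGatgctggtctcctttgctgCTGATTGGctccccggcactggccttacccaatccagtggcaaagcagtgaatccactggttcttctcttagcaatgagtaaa
Both motifs were searched on both strands, do not overlap each other in these sequences, and were chosen after the sequences had been seen. CTGATTGG was found in all 4 promoters and in 3.19% of 33469 promoter windows. The windows searched reached further upstream than the 120 bases printed, so the shares belong to longer stretches. ACNGATG was found in RT1-Bb, RT1-Da and RT1-Db1 and in 8.55% of all windows, and 0.224% of all windows held both. CTGATTGG was also found, on the other strand (CCAATCAG), in the window of the class I gene RT1-A2, and neither motif in that of RT1-A1. The RT1-A1 window ends in ccaatca, so a match at its end would be cut off and the absence shows no difference between these genes. A match is a description of the letters only.

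RT1-Ba and RT1-Bb encode the alpha and beta chains of the rat RT1.B molecule, and RT1-Da and RT1-Db1 those of RT1.D. RT1-Ba (ENSRNOG00000000451) was read at 72.9, 115 and 95.9 CPM in AL pools 4, 5 and 6 and at 14.2, 11.9 and 26.7 CPM in CR pools 13, 14 and 15. Its log2 fold change was -2.38 ± 0.26 (edgeR adjusted p = 7.12e-06), and -2.26 without AL pool 5 (adjusted p = 0.000739). Its groups lay far apart. RT1-Bb (ENSRNOG00000032708) was read at 26.8, 37 and 31.8 CPM in AL and at 6.39, 2.43 and 6.91 CPM in CR, in the same order of pools. The log2 fold change of RT1-Bb was -2.57 ± 0.33 (adjusted p = 8.02e-05), and -2.50 without AL pool 5 (adjusted p = 0.00231). The groups did not overlap for the beta chain gene either.

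RT1-Da (ENSRNOG00000032844) was read at 53.7, 154 and 65.3 CPM in AL pools 4, 5 and 6 and at 15.3, 8.84 and 24.3 CPM in CR pools 13, 14 and 15. AL pool 5, the shallow one, was the highest. The log2 fold change of RT1-Da was -2.34 ± 0.34 (edgeR adjusted p = 0.000363), and it was -1.89 without that pool (adjusted p = 0.00715). RT1-Db1 (ENSRNOG00000033215) was read at 46.3, 45.2 and 69.9 CPM in AL and at 9.73, 4.42 and 14.5 CPM in CR. Its log2 fold change was -2.54 ± 0.31 (adjusted p = 3.49e-05), and -2.61 without AL pool 5 (adjusted p = 0.00113). In each of the 5 class II genes CR pool 15 was the highest and CR pool 14 the lowest of the CR pools. In the AL+LA group, pool 38 was high for all of them, at 87.6 CPM for RT1-Ba, 31.9 CPM for RT1-Bb, 56.1 CPM for RT1-Da and 60.8 CPM for RT1-Db1, while pools 37 and 39 lay between 1.93 and 22.6 CPM for these 4 genes. Rn28s was lower in CR than in AL, as these genes were, but the order of pools within groups was another. Within AL+LA it was lowest in pool 38 (21683 CPM, against 28821 and 35498 CPM in pools 37 and 39). Within CR it was lowest in pool 15 (3033 CPM). Leaving Rn28s alone out before scaling kept the count of DE genes at 372. Any other part of Rn28s in the result was not tested.

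**Figure D3:**
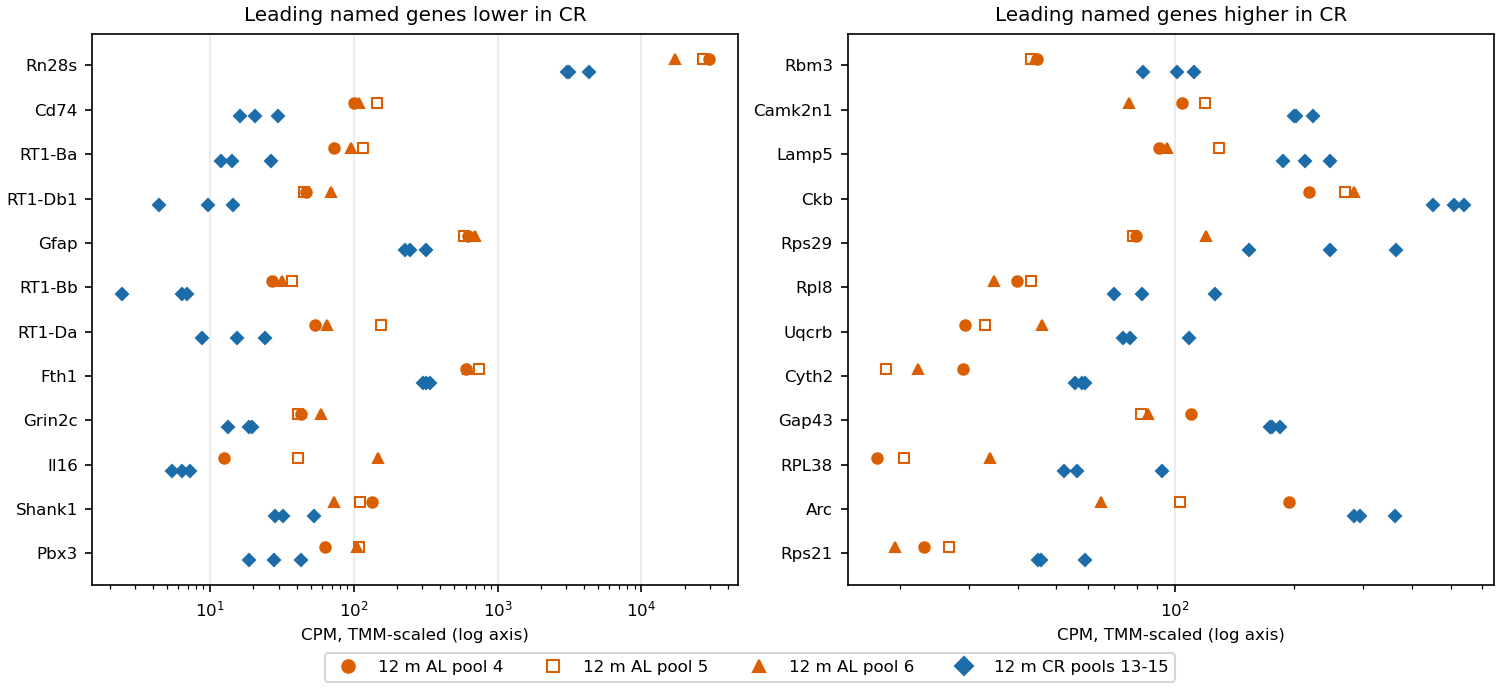
Levels of the leading named genes in each 12-month pool, in CPM on a log axis. Points are single pools, with AL pools 4, 5 and 6 as circles, open squares and triangles and the 3 CR pools as diamonds, for 12 genes lower and 12 genes higher in CR. The AL and CR points do not overlap for any gene shown, and those of the 5 MHC class II genes are widely separated.

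In the class I pathway, which presents peptides from inside the cell, 17 genes were listed, 3 had a name and 2 of these were lower in CR. RT1-A1, a classical class I heavy chain gene, was read at 96.7, 123 and 102 CPM in AL pools 4, 5 and 6 and at 46.1, 34 and 62.2 CPM in CR pools 13, 14 and 15, and its log2 fold change was -1.15 ± 0.20 (edgeR adjusted p = 0.0026; without AL pool 5, -1.07, adjusted p = 0.0268). RT1-A2 was read at 29.9, 22.6 and 25.2 CPM in AL and at 7.78, 12.6 and 14.5 CPM in CR (-1.20 ± 0.27, adjusted p = 0.0197; without AL pool 5, adjusted p = 0.0404). The groups did not overlap for either gene, although the call of RT1-A2 was lost without AL pool 4 (adjusted p = 0.061), CR pool 13 (0.109) or CR pool 14. Class I genes are near-identical copies, and reads with several matches had been dropped, so the split between RT1-A1 and RT1-A2 is uncertain.

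Among the complement genes, which tag cells and debris for removal, 1 of 6 named members was DE. C3, the central component, was read at 83.8, 74.0 and 88.5 CPM in AL pools 4, 5 and 6 and at 51.1, 43.1 and 35 CPM in CR pools 13, 14 and 15. The groups did not overlap, and the log2 fold change was -0.96 ± 0.19 (edgeR adjusted p = 0.00655; without AL pool 5, -1.01, adjusted p = 0.0202). The microglial markers did not share this pattern. Of the 6 that could be named, 0 were DE by edgeR, DESeq2 or voom (1 at an unadjusted p under 0.05, Itgam) and the median log2 fold change was 0.01. Their summed level was 267, 230.1 and 239 CPM in AL and 235, 232 and 259.8 CPM in CR, with overlapping groups. Itgam, the integrin CD11b subunit that most myeloid cells carry, was read at 15.3, 8.22 and 14.9 CPM in AL and at 6.95, 5.30 and 9.06 CPM in CR, and it did not pass (-0.99 ± 0.34, adjusted p = 0.149; without AL pool 5, -1.10, adjusted p = 0.113). The only named marker of T and B cells stood at 2.05 to 12.3 CPM in AL and 6.39 to 9.06 CPM in CR. None of the 4 named interferon-response genes was DE either by any of these tools (0 at an unadjusted p under 0.05, median log2 fold change -0.22), Ifi44 being at -0.35 (adjusted p = 0.741).

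Among the 4 astrocyte markers with a name, 2 were lower in CR. Gfap (ENSRNOG00000002919), the intermediate filament of astrocytes, was read at 619, 583 and 696 CPM in AL pools 4, 5 and 6 and at 245, 228 and 317 CPM in CR pools 13, 14 and 15. Every AL pool lay above every CR pool by a wide margin, and the log2 fold change was -1.28 ± 0.16 (edgeR adjusted p = 5.14e-05; without AL pool 5, -1.33, adjusted p = 0.000902). Aqp4, the water channel of astrocytic endfeet, was read at 881, 1175 and 960.2 CPM in AL and at 576, 623 and 605 CPM in CR. The groups were again apart, with a log2 fold change of -0.74 ± 0.15 (adjusted p = 0.00786; without AL pool 5, -0.62, adjusted p = 0.0474), and the call was lost without CR pool 14 (adjusted p = 0.053). Without AL pools 5 and 6 the log2 fold change of Aqp4 was -0.56. The markers did not fall as a group: Vim was at 61.6 to 76.5 CPM in AL and 69.6 to 86.0 CPM in CR, and Gjb6 at 57.0 to 67.8 CPM in AL and 50.3 to 92.0 CPM in CR. Cd44, a marker of reactive astrocytes, did not pass (log2 fold change -0.71, adjusted p = 0.244). Fth1, the ferritin heavy chain that stores iron, was read at 600.2, 742 and 625 CPM in AL and at 319.7, 305 and 341 CPM in CR. Every CR pool lay below every AL pool, with a log2 fold change of -1.03 ± 0.15 (adjusted p = 0.000363; without AL pool 5, -0.94, adjusted p = 0.00566). Without AL pools 5 and 6 the log2 fold change was -1.24 for Gfap and -0.91 for Fth1.

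At the excitatory synapse, Grin2c, a subunit of NMDA glutamate receptors, was read at 43.0, 41.1 and 58.7 CPM in AL pools 4, 5 and 6 and at 19.7, 13.3 and 18.6 CPM in CR pools 13, 14 and 15. Its groups did not overlap, and its log2 fold change was -1.51 ± 0.23 (edgeR adjusted p = 0.000888; without AL pool 5, -1.57, adjusted p = 0.00449). Grin2c was highest in AL pool 6, the pool highest for cerebellar markers, and without AL pools 5 and 6 its log2 fold change was -1.34.

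Of 13 named genes of vesicle release and the postsynaptic scaffold, 1 was higher and 2 were lower. Shank1, a scaffold of the postsynaptic density, was read at 135, 111 and 72.8 CPM in AL pools 4, 5 and 6 and at 52.5, 28.5 and 32.4 CPM in CR pools 13, 14 and 15. It was highest in AL pool 4, the AL pool without cerebellar transcripts, and its log2 fold change was -1.50 ± 0.24 (edgeR adjusted p = 0.00113; without AL pool 5, -1.48, adjusted p = 0.0175). Shank3, a scaffold of the same family, was read at 63.8, 32.9 and 57.9 CPM in AL and at 35.6, 19 and 30.3 CPM in CR (-0.98 ± 0.24, adjusted p = 0.0356; without AL pool 5, adjusted p = 0.0327). Its groups overlapped through AL pool 5, and its call was lost without AL pool 4 (adjusted p = 0.072) or CR pool 14 (0.283). Syt1, the calcium sensor of synaptic vesicles, was read at 284, 236 and 200.5 CPM in AL and at 413, 376 and 364 CPM in CR, and it was higher in CR (0.66 ± 0.16, adjusted p = 0.0284). Without AL pool 5 it did not pass (0.66, adjusted p = 0.0874), nor without AL pool 6 (0.0644), CR pool 13 (0.119) or CR pool 14. Without AL pools 5 and 6 the log2 fold change of Syt1 was 0.43.

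Genes of the cerebellum were among the largest fold changes, and these rested on AL pools 5 and 6. Of the 6 named cerebellar markers 5 were lower in CR with all pools (2 by DESeq2, 0 by voom) and 2 without AL pool 5. Their median log2 fold change was -2.81 with all pools and 0.33 without AL pools 5 and 6. Fat2, a cadherin of cerebellar granule cells, was read at 2.74, 136 and 715 CPM in AL pools 4, 5 and 6 and at 2.50, 1.77 and 3.81 CPM in CR pools 13, 14 and 15. AL pool 4 was thus level with CR, and the log2 fold change of -6.76 ± 1.02 (edgeR adjusted p = 0.000686; without AL pool 5, -7.04, adjusted p = 0.0143) became -0.04 without AL pools 5 and 6. Gabra6, the granule cell subunit of GABA-A receptors, showed the same pattern, with 1.10, 127 and 624 CPM in AL and 1.11, 0.884 and 2.62 CPM in CR (-7.36 ± 1.11, adjusted p = 0.000694; without AL pool 5, -7.62, adjusted p = 0.0149). Without AL pools 5 and 6 its log2 fold change was 0.47. The transcription factor gene Zic2 and the genes Car8 and Cbln1, which mark Purkinje and granule cells, were called with all pools at adjusted p = 0.00694, 0.00944 and 0.0116. All 3 missed the threshold without AL pool 5 (adjusted p = 0.0675, 0.0537 and 0.0674), but their log2 fold changes moved little, from -2.37 to -2.24 for Zic2, from -2.48 to -2.66 for Car8 and from -3.13 to -3.30 for Cbln1. Il16, the precursor of interleukin 16, was read at 12.6, 41.1 and 148 CPM in AL and at 7.23, 6.41 and 5.48 CPM in CR (-3.46 ± 0.54, adjusted p = 0.000992; without AL pool 5, -3.62, adjusted p = 0.0149). Its AL pools stood in the same order as the cerebellar sum, and without AL pools 5 and 6 its log2 fold change was -0.99. The homeobox gene Pbx3 was read at 63.3, 109 and 105 CPM in AL and at 18.6, 28.1 and 42.9 CPM in CR, with no overlap (-1.59 ± 0.25, adjusted p = 0.00114; without AL pool 5, -1.49, adjusted p = 0.0227). Unlike the genes above, Pbx3 was still called with the cerebellar covariate (-1.12, edgeR adjusted p = 0.0212). Its log2 fold change was -1.09 without AL pools 5 and 6.

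Rbm3 (ENSRNOG00000005387), an RNA-binding protein gene induced by mild cooling, shared with Camk2n1 the smallest adjusted p among the named genes that were higher in CR. It was read at 44.7, 43.1 and 44.2 CPM in AL pools 4, 5 and 6 and at 101, 112 and 82.9 CPM in CR pools 13, 14 and 15. The AL pools were nearly equal and every CR pool was well above them, with a log2 fold change of 1.15 ± 0.18 (edgeR adjusted p = 0.00113; without AL pool 5, 1.14, adjusted p = 0.00867). In the AL+LA pools Rbm3 stood at 60.5, 56.1 and 40.9 CPM. Cirbp, the related cold-inducible gene, did not pass, at 32.6, 37 and 29.8 CPM in AL and 27.8, 26.1 and 25 CPM in CR. Hspa1b, an inducible chaperone gene of the heat shock protein 70 family with 2 identifiers here, was read for one of them (ENSRNOG00000050647) at 4.66, 0 and 4.96 CPM in AL and at 11.4, 23.2 and 14.3 CPM in CR. That identifier was higher in CR (1.92 ± 0.41, adjusted p = 0.0128; without AL pool 5, 1.76, adjusted p = 0.0385), but not without CR pool 14 (adjusted p = 0.151), and the other identifier did not pass (1.55, adjusted p = 0.0568; without AL pool 5, 1.77, adjusted p = 0.0675). Both were read at 11.4 and 23.2 CPM in CR pools 13 and 14, so the split of reads between these near-identical copies is uncertain. The first was the only call among the 7 identifiers of 6 named heat shock and chaperone genes.

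Ckb, Camk2n1, Lamp5, Cyth2 and Gap43 ranked among the 12 leading named genes that were higher in CR. Ckb, the brain creatine kinase that buffers ATP, was read at 218, 269 and 285 CPM in AL pools 4, 5 and 6 and at 509.8, 542 and 452 CPM in CR pools 13, 14 and 15. The groups were far apart, with a log2 fold change of 0.96 ± 0.16 (edgeR adjusted p = 0.00129; without AL pool 5, 0.99, adjusted p = 0.0113). Camk2n1, an inhibitor of the synaptic kinase CaMKII, was read at 104, 119 and 76.5 CPM in AL and at 223, 203 and 200.2 CPM in CR (1.09 ± 0.17, adjusted p = 0.00113; without AL pool 5, 1.19, adjusted p = 0.00484). Lamp5, a membrane protein gene of cortical neurons, was read at 91.0, 129 and 95.5 CPM in AL and at 247, 213 and 188 CPM in CR (1.08 ± 0.18, adjusted p = 0.00128; without AL pool 5, 1.20, adjusted p = 0.0035). Here too the groups did not overlap. Cyth2, an exchange factor for small GTPases, was read at 29, 18.5 and 22.3 CPM in AL and at 58.9, 55.7 and 57.9 CPM in CR (1.20 ± 0.21, adjusted p = 0.00235; without AL pool 5, adjusted p = 0.0141). Gap43, a growth cone protein gene, was read at 109.9, 82.2 and 85.6 CPM in AL and at 184, 177 and 174 CPM in CR (0.91 ± 0.17, adjusted p = 0.00361; without AL pool 5, 0.85, adjusted p = 0.0246). Without AL pools 5 and 6 the log2 fold change of Gap43 was 0.69. In the AL+LA pools Ckb stood at 284 to 425 CPM, Camk2n1 at 201 to 251 CPM, Lamp5 at 185 to 197 CPM, Cyth2 at 39.2 to 60.0 CPM and Gap43 at 177 to 192 CPM.

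Ribosomal protein genes supplied 13 of the 126 higher genes. This list and the next were drawn up after the values had been seen, and they are described without a test. Of 66 identifiers carrying 46 ribosomal protein symbols, 13 were higher and 0 were lower in CR, with a median log2 fold change of 0.56, and 9 were higher without AL pool 5. Without AL pools 5 and 6 their median was 0.62. Rps29 was read at 79.4, 78.1 and 119.9 CPM in AL pools 4, 5 and 6 and at 247, 363 and 154 CPM in CR pools 13, 14 and 15 (1.42 ± 0.24, edgeR adjusted p = 0.00166; without AL pool 5, adjusted p = 0.036). Rpl8 was read at 39.7, 43.1 and 34.7 CPM in AL and at 82.6, 127 and 70.1 CPM in CR (1.27 ± 0.22, adjusted p = 0.00213; without AL pool 5, adjusted p = 0.0187). In both genes CR pool 14 was the highest pool and no CR pool reached down to the AL pools. RPL38 (1.45 ± 0.26, adjusted p = 0.00365; without AL pool 5, 1.41, adjusted p = 0.0349) and Rps21 (1.16 ± 0.22, adjusted p = 0.00558; without AL pool 5, 1.21, adjusted p = 0.0158) were called too, and lost their calls without CR pool 14 (adjusted p = 0.0505 and 0.0678). Several of these symbols have more than 1 identifier, so the split of reads between near-identical copies is uncertain. Of 42 identifiers of nuclear respiratory chain and ATP synthase genes, 5 were higher and 0 were lower (median log2 fold change 0.54), and 2 were higher without AL pool 5. Without AL pools 5 and 6 their median was 0.73. Uqcrb, a subunit of complex III, was read at 29.3, 32.9 and 45.9 CPM in AL and at 73.9, 109 and 77.0 CPM in CR (1.24 ± 0.22, adjusted p = 0.00228; without AL pool 5, adjusted p = 0.0229). Sod1, the cytosolic superoxide dismutase, was the only DE gene among 12 named antioxidant genes. It was read at 93.1, 86.3 and 102 CPM in AL and at 155, 211 and 153 CPM in CR (0.86 ± 0.17, adjusted p = 0.00789; without AL pool 5, 0.82, adjusted p = 0.0429), and it did not pass without CR pool 14 (adjusted p = 0.104).

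Some activity-regulated and neuropeptide genes were higher in CR with all pools and missed the threshold without AL pool 5, at fold changes of similar size. Of 11 named immediate early genes, which neurons switch on within minutes of firing, 2 were higher in CR by edgeR and by voom, 0 by DESeq2, and 0 without AL pool 5 (edgeR). Arc, which acts at active synapses, was read at 195, 103 and 64.9 CPM in AL pools 4, 5 and 6 and at 362, 284 and 294 CPM in CR pools 13, 14 and 15 (1.32 ± 0.25, edgeR adjusted p = 0.00554). Without AL pool 5 its log2 fold change was 1.25 (adjusted p = 0.0728), and without AL pools 5 and 6 it was 0.68. Egr2, a zinc finger transcription factor gene, was read at 27.1, 16.4 and 4.13 CPM in AL and at 46.1, 56.1 and 41.0 CPM in CR (1.52 ± 0.36, adjusted p = 0.0244; without AL pool 5, 1.51, adjusted p = 0.102; without AL pools 5 and 6, 0.81). In both genes the groups did not overlap and AL pool 6 was the lowest.

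Of 10 identifiers of 9 named neuropeptide and secretory granule genes, 3 were higher in CR by edgeR and by DESeq2, 0 by voom, and 0 without AL pool 5 (edgeR). Npy, the peptide of a class of cortical interneurons, was read at 9.59, 6.16 and 8.27 CPM in AL pools 4, 5 and 6 and at 19.7, 25 and 17.9 CPM in CR pools 13, 14 and 15 (1.26 ± 0.30, edgeR adjusted p = 0.0241; without AL pool 5, 1.20, adjusted p = 0.0536; without AL pools 5 and 6, 1.11). Vip, which marks another interneuron class, was read at 34, 20.5 and 16.9 CPM in AL and at 47.5, 65.8 and 50.5 CPM in CR (1.11 ± 0.25, adjusted p = 0.016; without AL pool 5, 1.06, adjusted p = 0.0694; without AL pools 5 and 6, 0.68). Cck, the cholecystokinin gene, was read at 104, 65.7 and 61.2 CPM in AL and at 146, 149 and 116 CPM in CR (0.78 ± 0.20, adjusted p = 0.0366; without AL pool 5, 0.72, adjusted p = 0.129; without AL pools 5 and 6, 0.40). No AL pool reached a CR pool in any of the 3 genes. Penk, the enkephalin precursor, did not pass (0.89, adjusted p = 0.0589; without AL pool 5, 1.06, adjusted p = 0.0639), and its log2 fold change was 1.17 without AL pools 5 and 6. Of the 7 named markers of GABAergic neurons 2 were DE, Npy and Vip, and 4 of the 7 had a positive and 3 a negative log2 fold change. Their summed level was 534, 579 and 936 CPM in AL pools 4, 5 and 6 and 571 to 585 CPM in CR. In AL pool 6, the pool highest for cerebellar markers, Reln stood at 511 CPM and Calb2 at 74.4 CPM, against 188 and 9.86 CPM in AL pool 4. Neither Reln (-0.88) nor Calb2 (-1.76) was called.

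Sterol synthesis genes were represented by 7 named members, of which 2 were higher in CR. Hmgcs1, which makes the precursor of mevalonate, was read at 306, 275 and 206 CPM in AL pools 4, 5 and 6 and at 443, 522 and 410.4 CPM in CR pools 13, 14 and 15 (0.80 ± 0.17, edgeR adjusted p = 0.0105; without AL pool 5, 0.83, adjusted p = 0.0464; without CR pool 14, adjusted p = 0.105). Insig1, the sterol-regulated anchor of the SREBP pathway, was read at 88.2, 90.4 and 55.8 CPM in AL and at 143, 139 and 115 CPM in CR (0.78 ± 0.19, adjusted p = 0.0316; without AL pool 5, 0.85, adjusted p = 0.0593). The groups did not overlap in either gene, but Insig1 lost its call with any 1 of AL pools 5 and 6 and CR pools 13 and 14 left out. AL pool 6 was the lowest pool for both genes. Without AL pools 5 and 6 the log2 fold change was 0.58 for Hmgcs1 and 0.57 for Insig1. Neither was called with the cerebellar covariate (edgeR adjusted p = 0.259 and 0.399). Cldn11, the tight junction protein of myelin, was the only DE gene of 3 named oligodendrocyte markers (116, 119 and 143 CPM in AL, 169.6, 253 and 195 CPM in CR; 0.69 ± 0.17, adjusted p = 0.0357; without AL pool 5, 0.67, adjusted p = 0.11). The 3 markers summed to 378 to 425 CPM in AL and 446 to 574 CPM in CR. Vtn, the vitronectin gene of pericytes, was the only DE gene of 4 named mural and meningeal markers (1.06 ± 0.28, adjusted p = 0.0447), and it was not called without AL pool 5 (adjusted p = 0.0874). Alb, the plasma albumin gene, was read at 6.58, 8.22 and 27.7 CPM in AL and at 126, 165 and 11.7 CPM in CR. Its groups overlapped through CR pool 15, and its call (2.73 ± 0.61, adjusted p = 0.016) was lost without AL pool 5 (2.64, adjusted p = 0.123).

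**Figure D4:**
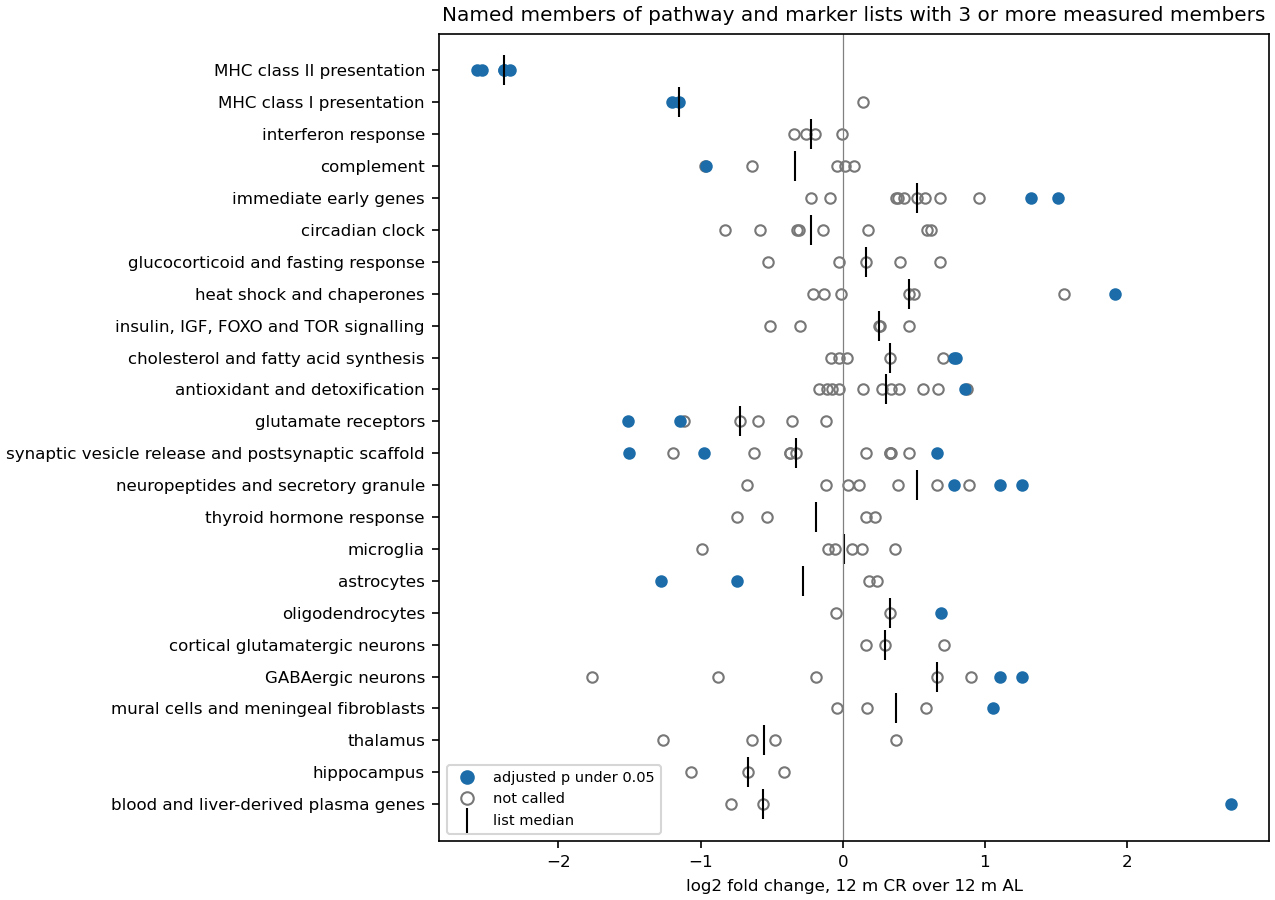
Log2 fold changes (CR over AL, 12 months) of the named members of each list with at least 3 of them, cerebellar markers left out. Each point is 1 gene identifier, filled where the gene was DE, and the short line is the median of the list. The MHC class II members lie together between -2.57 and -2.34, and all other points lie nearer to 0 except Alb at 2.73.

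Other lists chosen for a change of diet held no DE gene at 12 months in the edgeR test. None of 8 named circadian clock genes passed (median log2 fold change -0.22), although 3 had an unadjusted p under 0.05 and edgeR's exact test called 1. The closest was Rora, a nuclear receptor gene of the clock, at 40.5, 49.3 and 66.1 CPM in AL pools 4, 5 and 6 and 35, 25.4 and 28.4 CPM in CR pools 13, 14 and 15 (-0.83 ± 0.22, adjusted p = 0.0538; without AL pool 5, -0.85, adjusted p = 0.0977). Dbp, an output gene of the clock, was read at 39.7, 51.4 and 45.9 CPM in AL and at 68.9, 67.0 and 65.5 CPM in CR (0.59 ± 0.19, adjusted p = 0.109; without AL pool 5, 0.65, adjusted p = 0.0991). Its groups did not overlap, but neither did those of 11.1% of all genes in this direction. None of 5 named glucocorticoid and fasting genes passed, Cdkn1a being at 0.68 (adjusted p = 0.467; without AL pool 5, 0.47, adjusted p = 0.577), and none of 5 named genes of insulin and growth factor signalling, with Irs1 at -0.51 (adjusted p = 0.431; without AL pool 5, -0.65, adjusted p = 0.268) and Igfbp4 at 0.46 (adjusted p = 0.517; without AL pool 5, 0.46, adjusted p = 0.531). Likewise, none of 4 named thyroid hormone genes, 4 thalamic markers or 3 hippocampal markers was DE. The thalamic markers varied between pools, with sums of 251, 253 and 321 CPM in AL pools 4, 5 and 6. In CR pools 13, 14 and 15 they summed to 168, 231 and 375 CPM, and Slc17a6 among them stood at 8.62, 29.4 and 108 CPM. The counts at an unadjusted p under 0.05 were 2 of 4 for the thalamic and 2 of 3 for the hippocampal markers and 0 for the fasting, insulin and thyroid lists, and DESeq2 and voom called 0 in these 5 lists. With 3 pools per group and pool 5 shallow, a missed threshold does not show that these genes were alike.

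Some of the gene identifiers with the smallest adjusted p had no name. ENSRNOG00000048154 was read at 29645, 26792 and 17092 CPM in AL pools 4, 5 and 6 and at 4270.1, 3189 and 2999 CPM in CR pools 13, 14 and 15, which are nearly the values of Rn28s in each pool (-2.82, edgeR adjusted p = 4.96e-09; without AL pool 5, -2.75, adjusted p = 9.09e-06). Among the identifiers that were higher in CR, ENSRNOG00000032274 was read at 32.1, 26.7 and 55.4 CPM in AL and at 210.2, 656 and 264 CPM in CR (3.22 ± 0.33, adjusted p = 3.77e-06; without AL pool 5, 3.12, adjusted p = 0.00191). Every CR pool was several times above every AL pool.

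To place the 12-month difference, the same test was run at 6 months and at 28 months, in libraries that the 12-month comparison does not share. Some AL pools of those ages also held cerebellar transcripts. The named cerebellar markers summed to 863 CPM in AL pool 2 at 6 months. At 28 months they summed to 1305 and 1289 CPM in AL pools 7 and 9. The CR pools of these ages stood at 54.5 to 95.8 CPM. The part of this difference in the genes shared between ages was not tested. At 6 months 379 genes were DE (2.20%) and at 28 months 711 (4.13%), of which 500 were higher (2.90%) and 211 lower (1.22%) in CR. Of the 372 genes DE at 12 months, 98 were DE in the same direction at 6 months (26.3% of the 12-month and 25.9% of the 6-month genes) and 1 in the opposite direction. At 28 months 110 were DE in the same direction (29.6% of the 12-month and 15.5% of the 28-month genes) and 36 in the opposite direction. All 36 were lower in CR at 12 months and higher in CR at 28 months, and 45 genes were DE in the same direction at all 3 ages. Many of the 36 had no name, and several of those had nearly the fold changes of Rn28s (-2.82 at 12 and 2.73 at 28 months). ENSRNOG00000048154, for example, was at -2.82 and 2.72. The 36 identifiers therefore need not be 36 separate genes. Tested directly, the effect of diet differed between 12 and 28 months for 66 genes (0.383% of those tested, edgeR interaction), of which 64 (0.371%) had the lower fold change at 12 months. Of these 66, 35 had a name, and the unnamed ones include those that follow Rn28s. Between 12 and 6 months it differed for 0 genes in edgeR (1054 at an unadjusted p under 0.05) and in voom, and for 12 genes in DESeq2.

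The class II genes, Gfap and C3 were among the genes that turned. Cd74 was read at 20.8, 26.8 and 16.5 CPM in AL and at 12.7, 8.77 and 17.5 CPM in CR at 6 months, with overlapping groups. At 28 months it was read at 20.4, 46.3 and 25.7 CPM in AL and at 76.2, 82.7 and 93.3 CPM in CR, with CR above AL in every pool. The 12-month AL pools, at 101 to 146 CPM, were thus above all AL and CR pools of the other ages. The fold changes of the 5 class II genes were 3.81 to 4.13 lower on the log2 scale at 12 than at 28 months (edgeR interaction, adjusted p from 4.39e-07 to 3.53e-05). Gfap was read at 139 to 201 CPM in AL and 392 to 700.5 CPM in CR at 28 months, and its difference between the ages was -2.88 (adjusted p = 4.39e-07). For C3 the difference was -1.69 (adjusted p = 0.00162). Rn28s turned with them, from 24508 CPM in AL and 3492 CPM in CR at 12 months to 4832 CPM in AL and 32075 CPM in CR at 28 months, and its part in these differences was not tested.

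Rbm3 showed the other direction. It was read at 57.5, 57.0 and 44.5 CPM in AL and at 92.8, 77.9 and 70.6 CPM in CR at 6 months, where the groups did not overlap but the gene did not pass (0.58, edgeR adjusted p = 0.12). At 28 months AL stood at 80.8 to 117 CPM and CR at 90.8 to 101 CPM, with a log2 fold change of 0.02. The effect of diet on Rbm3 was 1.16 higher at 12 than at 28 months (edgeR interaction, adjusted p = 0.0195). The 12-month CR pools therefore lay at the level of both diets at 28 months. Shank1 was lower in CR at 6 months as well, at 125 to 177 CPM in AL and 28.4 to 32.2 CPM in CR (-2.33, adjusted p = 9.36e-06), and at 28 months it did not pass (-0.71, adjusted p = 0.133). Ckb was higher in CR at 28 months (0.76, adjusted p = 0.0162) and did not pass at 6 months (0.60, adjusted p = 0.132). Grin2c was lower in CR at 28 months (-0.85, adjusted p = 0.0127) and had a value of -0.69 at 6 months (adjusted p = 0.226).

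**Figure D5:**
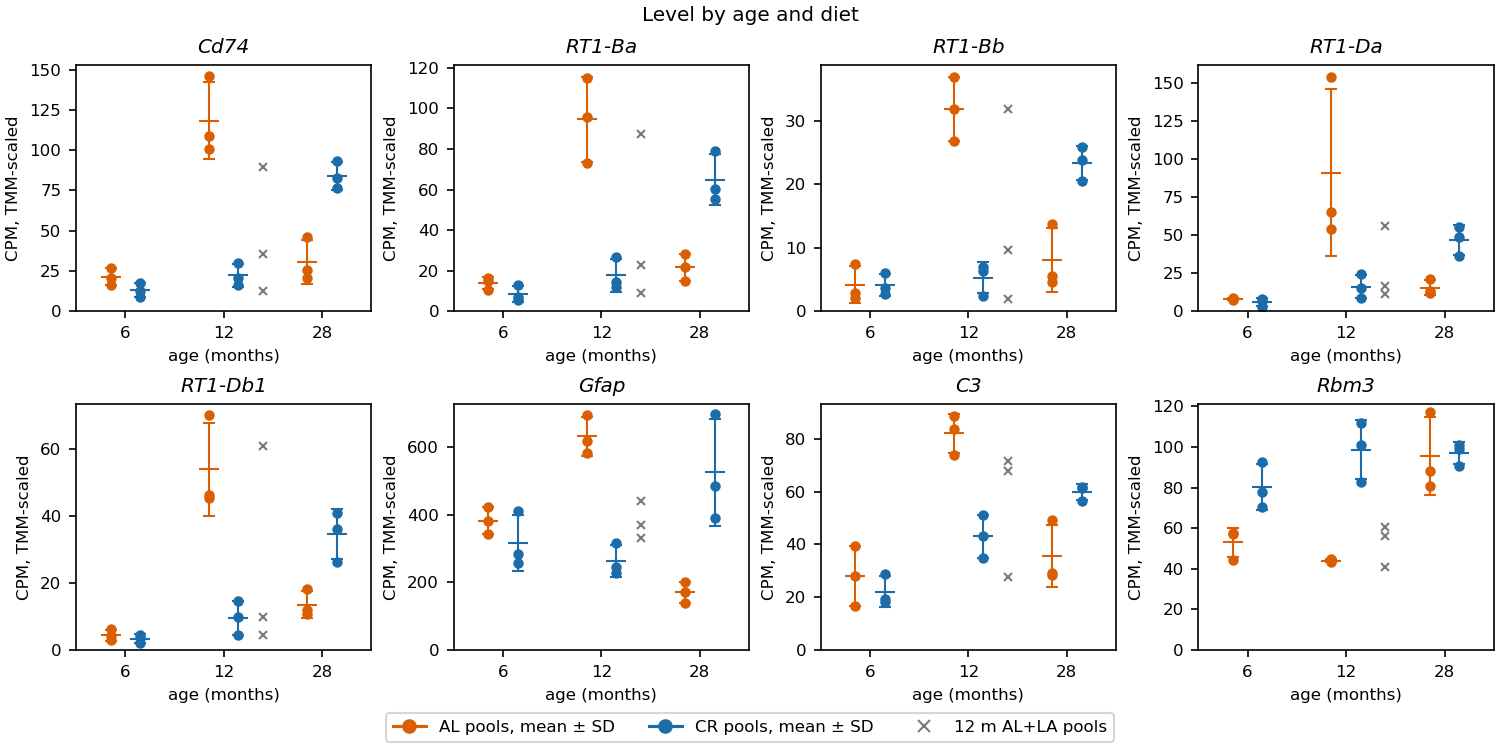
Levels of Cd74, RT1-Ba, RT1-Bb, RT1-Da, RT1-Db1, Gfap, C3 and Rbm3 by age (6, 12 and 28 months) in CPM. Points are single pools of AL and CR, with the group mean and bars of 1 SD (n = 3 pools), and crosses are the AL+LA pools at 12 months. Cd74 is at 101 to 146 CPM in AL at 12 months and at 76.2 to 93.3 CPM in CR at 28 months, and at 46.3 CPM or less in the other AL and CR pools.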

How the data were processed

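Cortical RNA (RNA integrity number above 8, ribosomal RNA depleted) was sequenced on a SOLiD 5500xl. The authors aligned reads to rn5 with Bowtie in colour space, dropped reads with several matches and counted reads per gene with HTSeq; versions and strand setting are not given in the sources used here. The deposited values are raw counts for 26123 gene identifiers. The last 5 lines of each file, which name no gene, were left out. Gene names came from identifier pairs in the supplement of the study.

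From the counts, the 17230 genes reaching 1 CPM in 3 or more of all 39 libraries were scaled by TMM and tested with edgeR 4.0.16 in R 4.3.3 (glmQLFit, glmQLFTest, Benjamini-Hochberg). CPM values are TMM-scaled and not length-corrected, so levels are compared within a gene. The scripts were tested on simulated data. DESeq2 1.42.0 and limma 3.58.1 (voom) were alternatives. Named genes were up to 12 per direction with the smallest adjusted p and no overlap between groups, the class II genes, Rn28s, and per list every DE member or up to 3 with the smallest p; other listed values, Vim, Gjb6, the motifs and the ribosomal protein and respiratory lists were chosen after values were seen. The comparison and all lists were chosen with earlier results of these data known. No batch is given in the labels. A further DE gene is not reported here.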

Additional observations from a re-analysis of the deposited data

Results flagged for a closer look

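The effect of diet differed between 12 and 28 months, by edgeR's test of the interaction of age and diet, for 14 of the genes named above. The values are the log2 fold change (CR over AL) at 12 months minus that at 28 months. The difference was largest in size for Rn28s (-5.52, adjusted p = 1.76e-10). Among the class II genes it was -4.13 for RT1-Bb, -3.94 for RT1-Ba, -3.91 for RT1-Da, -3.88 for RT1-Db1 and -3.81 for Cd74. It was -2.88 for Gfap, -1.69 for C3, -1.66 for Pbx3 (adjusted p = 0.0169) and -1.41 for the ferritin gene Fth1 (adjusted p = 0.000127). The class I genes RT1-A2 and RT1-A1 differed by -1.61 (adjusted p = 0.0191) and -1.35 (adjusted p = 0.0158), and Itgam by -2.20 (adjusted p = 0.0454). Rbm3 alone among them had the higher fold change at 12 months, by 1.16 (adjusted p = 0.0195). With genes above 1000 CPM removed before scaling, 43 genes in all were called in this test, against 66.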

How the results depend on the processing

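The count of 372 DE genes (126 higher, 246 lower) was 191 for the higher genes with edgeR's exact test, 207 with voom (65 higher, 142 lower), 760 without a filter (305 and 455) and 857 with all 13 groups in 1 fit (373 and 484). After seeing the data, AL pools 5 and 6 were left out together (242, of which 141 lower), and a covariate of cerebellar marker level was added (178, 71 higher and 107 lower). Leaving out 1 pool at a time gave 109 to 756 genes, 21 to 294 higher and 88 to 462 lower, the lowest without CR pool 14 (109), then AL pool 5 (206) and CR pool 13 (212), and the highest without AL pool 4 (756). Without AL pool 5, the 206 genes became 494 with the exact test, 106 with voom, 890 without a filter and 34 to 1008 with a further pool left out. The difference between 12 and 6 months (0 genes) gave 12 with DESeq2, 132 without a filter, 4 with all groups and 0 to 15 with 1 pool left out. That between 12 and 28 months (66) gave 116 with DESeq2, 214 without a filter, 122 with all groups, 43 without genes above 1000 CPM and 46 to 83 with 1 pool left out. The counts at 6 and 28 months ranged from 67 to 573 and from 135 to 1120. The difference in Rn28s (CR minus AL) ranged from -24687 to -18482 CPM. Other scalings kept the share of higher calls at 33.1% to 34.9%, against 33.9%, while it was 48.0% without AL pool 6 and 19.3% without CR pool 14. Of the 47 DE genes named, 26 kept their call with each pool left out in turn and 21 in every setting. The sign turned for Gabra6 (0.47), Car8 (0.20) and Cbln1 (0.57) without AL pools 5 and 6, and for Car8 (0.14) and Cbln1 (0.50) with the covariate. The causes were not tested. No paired analysis was possible because every pool has a number of its own. Depth limits AL pool 5 most, with 494091 reads on genes.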
